A study of Homo sapiens with 6 samples.

Results

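The 56 protein-coding genes for collagen and laminin chains were followed in the human ovarian adenocarcinoma line SKOV3ip1 after silencing of BARD1. They were taken from the 58735 genes of the count table by name alone: 44 collagen genes (COL, a number, A, a number) and 12 laminin genes (LAMA, LAMB or LAMC and a number). Of these, 33 had enough counts to be tested, 23 collagens and 10 laminins.

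All 6 libraries came from SKOV3ip1 cells with a genotype labelled WT, transfected with 2 µg of siRNA by a cationic lipid reagent and harvested after 48 h. Control cells received control siRNA and the others BARD1 siRNA, with 3 libraries each. The titles number them as biological replicates. The labels do not say whether the cultures were transfected separately, so the p-values reflect only how these libraries varied. It is a single cancer line, called a tumor in some labels although the protocols describe cells grown in 6-well plates. How many siRNA sequences were used is not stated in the labels.

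Collagens and laminins form most of the protein scaffold outside cells. Collagen chains wind into triple helices that become fibrils, sheets or transmembrane rods, and laminins are cross-shaped trimers of an alpha, a beta and a gamma chain that, with collagen IV, build the basement membrane under epithelia. Laminin-332, which holds the LAMA3 and LAMB3 chains, ties epithelial cells to that sheet, and laminin-511, made of LAMA5, LAMB1 and LAMC1, is a common trimer of mature basement membranes. In ovarian carcinoma both families stand between tumour cells and the surfaces they invade.

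Sequences are shown for the genes on which the laminin and collagen IV results turn, as a view of the DNA near their starts. They come from RefSeq on GRCh38.p14, where 41 of the 56 genes matched a window of 250 bases before and 50 after a start, in 55 windows. COL1A1, COL1A2, COL2A1, COL3A1, COL5A2, COL6A1, COL6A5, COL8A1, COL9A3, COL14A1, COL20A1, COL22A1, LAMA1 and LAMC3 were among those with no match by symbol. Capitals mark a match to the AP-1 motif (TGANTCA, either strand) in the first 3 lines, to the kappaB consensus in the fourth, and to a CCAAT box (CCAAT) and a GC box (GGGCGG), either strand, in the last lines. For LAMB3 the part of the 250 bases before a start that lies outside GENCODE 29 exons is shown. This is given for an internal start and the outermost start, not for every LAMB3 start. For the other genes the 30 bases around each match are shown.
LAMA3, first match, chr18:23872884-23872913, plus strand: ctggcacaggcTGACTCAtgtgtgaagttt
LAMA3, second match, chr18:23872940-23872969, plus strand: ccttcctcaccTGAGTCAggcaggcccggg
LAMB3, before an internal start, chr1:209651395-209651624, minus strand: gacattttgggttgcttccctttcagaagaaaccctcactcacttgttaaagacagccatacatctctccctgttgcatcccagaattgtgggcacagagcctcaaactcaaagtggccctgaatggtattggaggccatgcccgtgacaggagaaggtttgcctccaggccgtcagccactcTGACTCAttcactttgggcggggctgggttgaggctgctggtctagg
LAMB3, before its outermost start, chr1:209652467-209652675, minus strand: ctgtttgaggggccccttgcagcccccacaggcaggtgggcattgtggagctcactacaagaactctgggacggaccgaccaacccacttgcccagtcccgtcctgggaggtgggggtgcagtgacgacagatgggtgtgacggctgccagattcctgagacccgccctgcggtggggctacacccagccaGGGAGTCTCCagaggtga
COL4A1 and COL4A2, shared region, chr13:110307167-110307196, plus strand: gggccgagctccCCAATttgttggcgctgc
COL4A1 and COL4A2, shared region, chr13:110307207-110307236, plus strand: ccggcggtgcgcGGGCGGcgcctcaaaggg

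The AP-1 motif stood in 3 of the 55 member windows, those of LAMA3, LAMB3 and COL10A1, and in 7.71% of all 35116 windows of that length. Both LAMA3 matches lie before an internal start and within an annotated exon of the gene. The first LAMB3 stretch is intronic, and the other lies upstream of the gene and outside annotated genes. The kappaB consensus stood in 8 of the 55 member windows and in 11.3% of all windows. The 7 members with it were LAMB1, LAMB3, COL4A4, COL6A2, COL7A1, COL15A1 and COL25A1. The GC box stood in 32 of the 55 member windows, for 27 of the 41 members, and in 45% of all windows. The CCAAT box stood in 16 of the 55 member windows and in 34.6% of all windows. Some members have several windows. These are matches of letters, and no binding was measured here.

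BARD1 had 44.3 ± 5.85 CPM (read counts scaled to a common library size; mean ± SD, n = 3) with control siRNA and 7.38 ± 2.04 with BARD1 siRNA. Its log2 fold change was −2.58 (SE 0.14, edgeR adjusted p = 1.21e-15). The libraries held 16621108 to 17743404 counts. Of 15271 genes tested, 42.3% were called at an adjusted p of 0.05, 22.0% higher and 20.3% lower with BARD1 siRNA. With upper-quartile scaling 2815 genes were higher and 3975 lower, against 3355 and 3107 as reported, and with library size alone 2852 and 3906. The epithelial and carcinoma markers summed to 2350 to 2520 CPM with control and 2520 to 2600 CPM with BARD1 siRNA, of which KRT8 made up 1232 ± 57.2 and 1276 ± 42.2 CPM. Of the 8 tested, PAX8 and KRT18 rose 1.68-fold and 1.32-fold, KRT7, KRT19 and EPCAM fell 1.97-fold, 1.52-fold and 1.18-fold, and the other 3 did not pass. CDH1 and MUC16 stayed under 1 CPM in every library. The part of these markers in the results was not tested. The defining endothelial markers PECAM1 and CDH5 had at most 6 counts in any group, and the leukocyte marker PTPRC had 0. Endothelial markers summed to at most 2.90 CPM in any library and leukocyte markers to at most 1.76 CPM.

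Among the chains LAMB3 rose most, 6.84-fold, and LAMA3, its partner in laminin-332, rose 1.81-fold. COL17A1, COL27A1 and COL16A1 were the collagens that rose most, and COL3A1, COL5A2, COL12A1 and the laminin chain LAMC3 were the members that fell. Of the 33 tested members 13 rose and 4 fell, which is 39.4% and 12.1%, beside 22.0% and 20.3% of all tested genes. Their median log2 fold change was 0.14, beside −0.01 over all tested genes. Of the 10 tested laminins 5 rose and 1 fell, and of the 23 tested collagens 8 rose and 3 fell. Well-expressed genes were called more often: with at least 20 CPM in 1 group, 58.4% of all tested genes were called, 30.8% higher and 27.6% lower, and of the 19 members at that level 12 rose and 1 fell. A rise of at least 2-fold was called for 5 members, beside 4.48% of all tested genes, and a fall of that size for 0 members, beside 1.94%. With upper-quartile scaling 11 members rose and 5 fell.

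**Figure D1:**
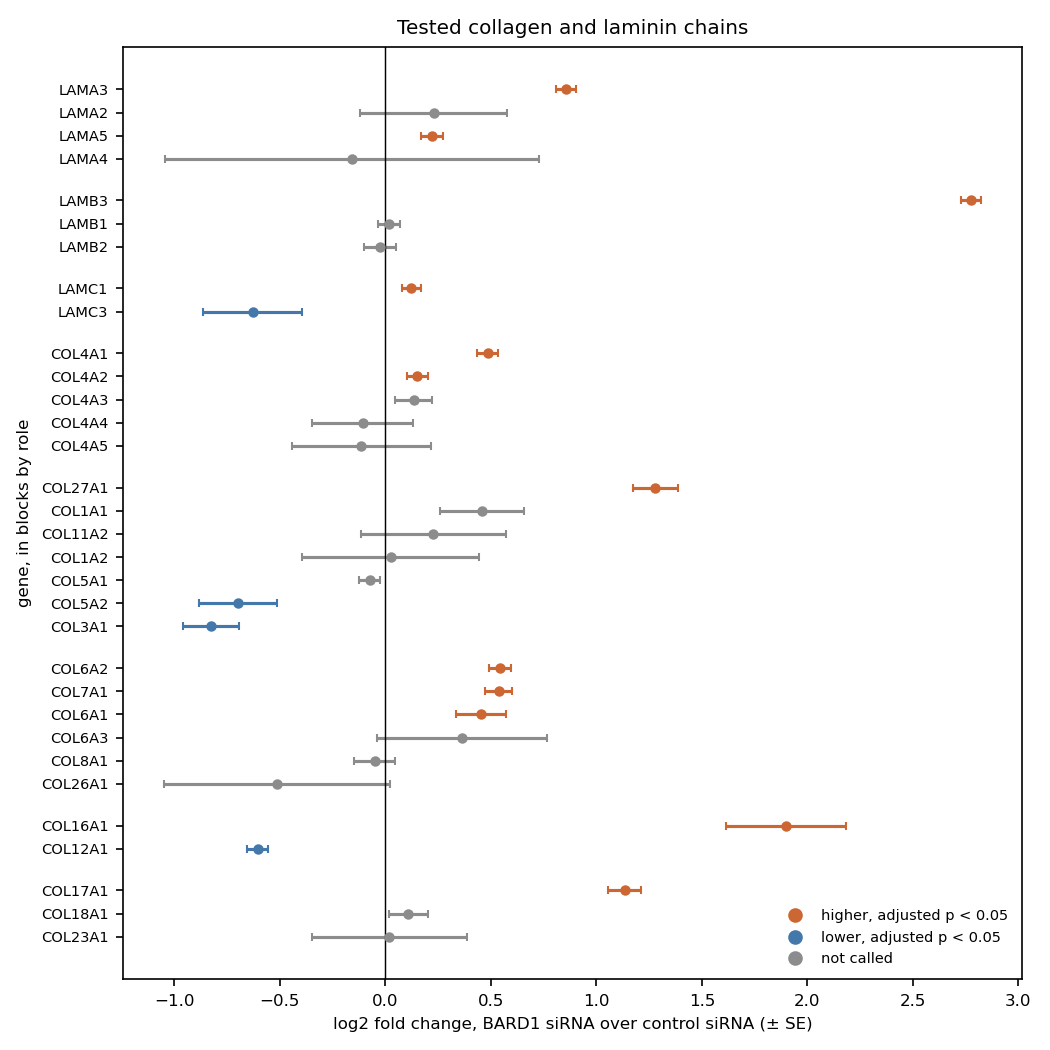
Log2 fold change of 32 tested collagen and laminin genes, BARD1 siRNA over control siRNA, with its SE from edgeR (horizontal axis), in blocks by role (vertical axis). Orange and blue points passed an adjusted p of 0.05 and grey points did not. LAMB3 at 2.77 lies farthest to the right, and COL3A1 at −0.83 farthest to the left.

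The alpha chain of laminin-332, LAMA3 (ENSG00000053747, GRCh38 chromosome 18, 23689443 to 23956222, plus strand), had 345, 333 and 334 CPM with control siRNA and 639, 609.8 and 586 CPM with BARD1 siRNA. Every BARD1 siRNA library lay above every control library. The log2 fold change was 0.86 (SE 0.05, edgeR adjusted p = 1.51e-21), a 1.81-fold rise. LAMB3, the beta chain (ENSG00000196878, chromosome 1, 209614870 to 209652466, minus strand), went from 318, 304 and 293 to 2152, 2091 and 2016 CPM. The groups lay far apart, and the spread within each was small beside the gap, at 305 ± 12.5 and 2086 ± 68.1 CPM (SD, n = 3). Its log2 fold change of 2.77 (SE 0.05, edgeR adjusted p = 9.87e-44) ranked 92 from the top among the 15271 tested genes.

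Per kilobase of gene length, the level of LAMB3 was 65.0 ± 2.67 CPM per kb in control cells, above that of LAMA3 at 23.0 ± 0.458. Gene length here is the union of all annotated exons, 4688 bases for LAMB3 and 14678 for LAMA3. In plain CPM the control order was the reverse, at 305 for LAMB3 and 337.5 for LAMA3. Levels and ratios per kb between these genes therefore rest on those lengths. With BARD1 siRNA the levels per kb were 445 ± 14.5 for LAMB3 and 41.7 ± 1.80 for LAMA3. LAMB3 thus had the highest level per kb of all members with BARD1 siRNA. The ratio of LAMB3 to LAMA3 per kb was 2.88, 2.86 and 2.74 in control libraries and 10.5, 10.7 and 10.8 in BARD1 siRNA libraries. The groups did not overlap, and an exact two-sided permutation test gave p = 0.1, the smallest that 3 libraries against 3 allow.

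Differences were smaller among the chains of laminin-511 and its relatives. LAMA5, the alpha chain of that trimer, had 273, 292 and 246 CPM with control and 315, 318 and 312 CPM with BARD1 siRNA, and rose 1.17-fold (log2 fold change 0.22 with SE 0.05, edgeR adjusted p = 0.00049). LAMB1, its beta chain, had 205, 208 and 223 CPM in control and 222, 212 and 211 CPM in BARD1 siRNA libraries, so that the groups overlapped (log2 fold change 0.02 with SE 0.05, edgeR adjusted p = 0.804). LAMB2, the beta chain found at synapses and in the kidney filter, had 51.5, 54.1 and 49.5 CPM against 52.0, 51.2 and 49.01 CPM and also overlapped (log2 fold change −0.03 with SE 0.08, edgeR adjusted p = 0.823). LAMC1, the gamma chain of most laminins, was the most abundant member per kb in control cells. Its 676, 622 and 635 CPM in control and 716, 709.5 and 680.4 CPM in BARD1 siRNA libraries gave a 1.09-fold rise (log2 fold change 0.12 with SE 0.05, edgeR adjusted p = 0.0274). That call was lost with upper-quartile scaling, at an adjusted p of 0.324, with library size alone, at 0.268, without control siRNA replicate 2, at 0.0822, and without BARD1 siRNA replicate 1 or 2, at 0.138 and 0.119. Over all alternatives it ran from 0.0124 to 0.324.

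LAMC3, a gamma chain that is scarce in epithelia, fell from 6.72, 5.05 and 4.22 to 3.38, 3.08 and 3.85 CPM. The lowest control library lay just above the highest BARD1 siRNA library (log2 fold change −0.63 with SE 0.23, edgeR adjusted p = 0.0253). Without control siRNA replicate 1 the adjusted p was 0.210, and without BARD1 siRNA replicate 1 or 2 it was 0.0576 and 0.0957, within a range of 0.00856 to 0.210 over all alternatives. LAMA2, the alpha chain of muscle, had at most 3.26 CPM in any library, and LAMA4, a chain of vessel walls, at most 1.64 CPM. Neither passed the test (edgeR adjusted p = 0.641 and 0.907). LAMB4 had 12 counts over the control and 3 over the BARD1 siRNA libraries, and LAMA1 had 0 and 2. Both were too low to test.

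**Figure D2:**
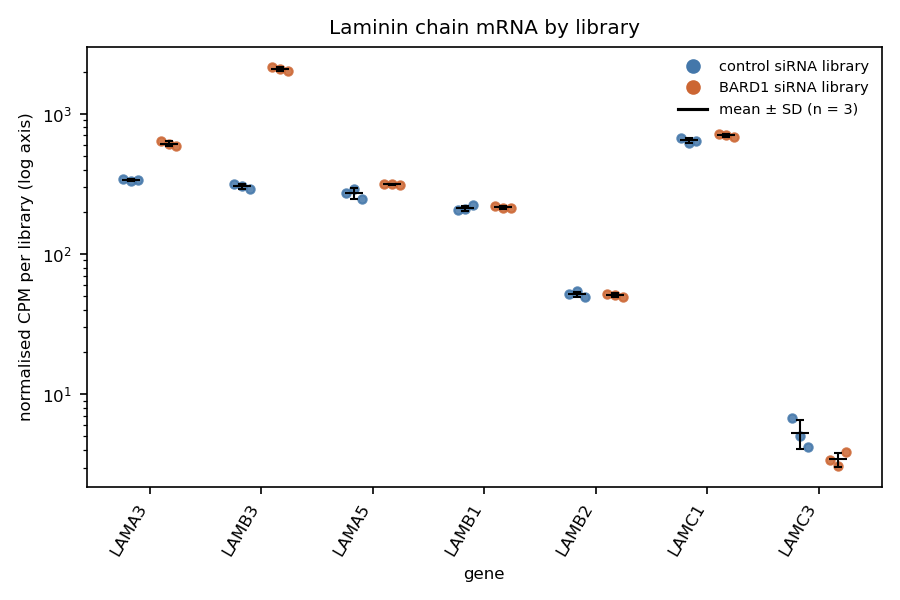
Normalised CPM of 7 laminin genes in each library (log axis), with control siRNA in blue, BARD1 siRNA in orange and mean ± SD (n = 3) in black. The LAMA3 and LAMB3 points of the groups are separate, and those of LAMB1 and LAMB2 overlap; LAMA1, LAMA2, LAMA4 and LAMB4, at low or zero counts, are not drawn.

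Taken as shares of their family per kb, LAMB3 and LAMA3 took larger parts with BARD1 siRNA. LAMB3 made up 67.4%, 65.9% and 64.4% of beta chain mRNA in control libraries and 92.9%, 93.0% and 92.9% in BARD1 siRNA libraries, a difference of 27.0 percentage points. LAMB1 took up 26.4 ± 1.60% and then 5.52 ± 0.0793% of that family, although its own level did not pass the test. LAMA3 went from 54.6 ± 2.20% to 65.1 ± 0.864% of alpha chain mRNA, with LAMA5 making up nearly all of the rest. The groups did not overlap for any of the 10 shares compared, and each exact permutation p was 0.1, also after Benjamini-Hochberg adjustment, which is the smallest possible here. COL4A1 went from 32.1 ± 0.709% to 37.4 ± 0.351% of collagen IV mRNA and COL4A2 from 58.3 ± 1.44% to 54.0 ± 0.377%. Reads per gene do not show which trimers were assembled.

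**Figure D3:**
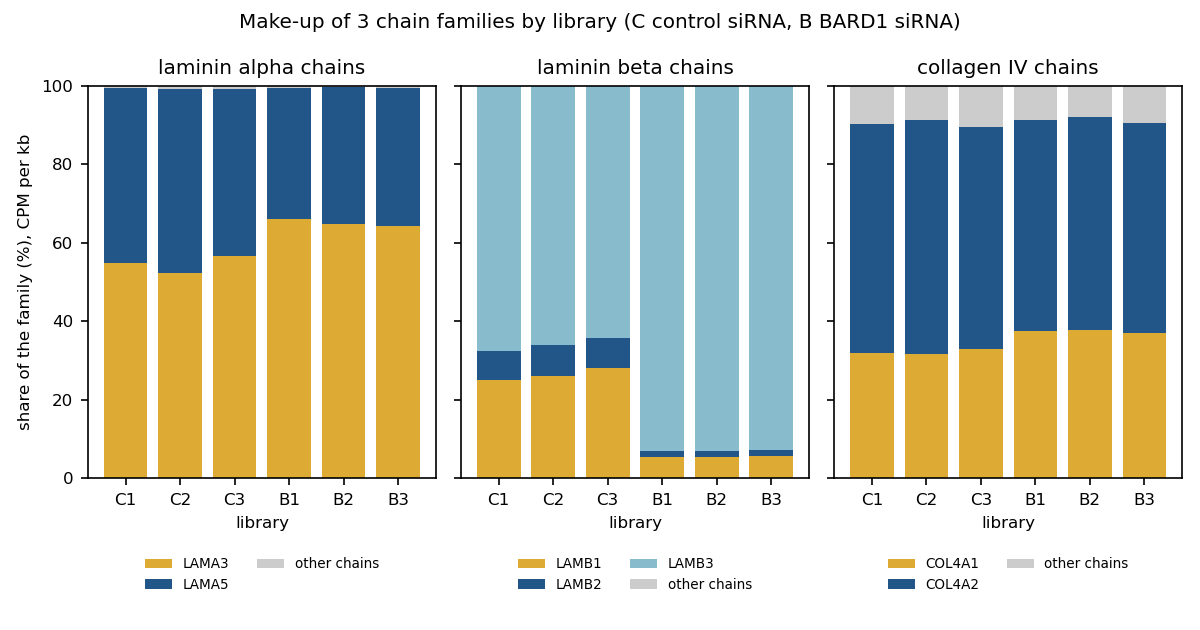
Share of each chain in the summed CPM per kb of its family (vertical axis, %), for each library of control siRNA (C1 to C3) and BARD1 siRNA (B1 to B3). LAMB3 fills about 65.9% of the beta chain bars in control and 92.9% in BARD1 siRNA libraries, and collagen IV changes less.

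Collagen IV is the sheet-forming collagen of basement membranes, and its 6 genes lie in head-to-head pairs. COL4A1 (ENSG00000187498, chromosome 13, 110148963 to 110307233, minus strand) and COL4A2 (ENSG00000134871, chromosome 13, 110305812 to 110513209, plus strand), whose chains join in the common form, have RefSeq starts separated by the 126 bases from which the last sequence lines above are taken. COL4A1 had 228, 239 and 222 CPM with control and 318, 330.2 and 317 CPM with BARD1 siRNA, with no overlap, and rose 1.40-fold (log2 fold change 0.49 with SE 0.05, edgeR adjusted p = 7.99e-12). COL4A2 had 548, 590.5 and 501 CPM against 599, 622 and 600.0 CPM, and rose 1.11-fold (log2 fold change 0.15 with SE 0.05, edgeR adjusted p = 0.0107). The COL4A2 call was lost with upper-quartile scaling, at an adjusted p of 0.172, with library size alone, at 0.136, without control siRNA replicate 3, at 0.123, and without BARD1 siRNA replicate 2, at 0.0887; its alternatives ran from 0.000193 to 0.172.

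The ratio of COL4A1 to COL4A2 per kb was 0.545, 0.529 and 0.580 in control and 0.693, 0.694 and 0.691 in BARD1 siRNA libraries, which did not overlap (exact two-sided permutation p = 0.1, the smallest possible). The annotated ends of these genes overlap by 1422 bases on opposite strands, and the labels give no strand setting for the counts, so reads of that stretch cannot be assigned with certainty. COL4A3, a chain of the kidney filter, had 37.2, 36.5 and 37.4 CPM in control and 40.2, 37.3 and 44.5 CPM in BARD1 siRNA libraries (log2 fold change 0.13 with SE 0.09, edgeR adjusted p = 0.222). COL4A4 and COL4A5 stayed under 6 CPM and did not pass (edgeR adjusted p = 0.756 and 0.816), and COL4A6 had 1 count in all.

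Collagens VII and XVII are partners of laminin-332 in skin: COL17A1 spans the membrane at hemidesmosomes, the rivets that hold epithelial cells to the basement membrane, and COL7A1 forms the anchoring fibrils beneath. COL17A1 (ENSG00000065618, chromosome 10, 104031286 to 104085957, minus strand) had 29.7, 31.5 and 32.6 CPM with control and 67.2, 69.0 and 69.8 CPM with BARD1 siRNA. The groups did not overlap, and COL17A1 rose 2.20-fold (log2 fold change 1.13 with SE 0.08, edgeR adjusted p = 1.29e-17). COL7A1 (ENSG00000114270, chromosome 3, 48564073 to 48595267, minus strand) went from 97.9, 118 and 106 to 169, 154 and 144 CPM, a 1.45-fold rise (log2 fold change 0.54 with SE 0.06, edgeR adjusted p = 2.96e-09). COL18A1, a heparan sulfate collagen whose end fragment is endostatin, was the second most abundant member per kb in control cells. Its 632, 722 and 546 CPM in control and 681, 710.0 and 657 CPM in BARD1 siRNA libraries overlapped (log2 fold change 0.11 with SE 0.09, edgeR adjusted p = 0.395). Without control siRNA replicate 2, the library with the highest COL18A1 level, the log2 fold change was 0.21 and the edgeR adjusted p 0.000518, and without control siRNA replicate 3, the lowest, they were 0.01 and 0.916.

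Collagen VI forms beaded filaments next to basement membranes. COL6A2 (ENSG00000142173, chromosome 21, 46098097 to 46132849, plus strand) had 136, 141 and 132 CPM in control and 200.5, 198 and 197 CPM in BARD1 siRNA libraries, a 1.46-fold rise with no overlap (log2 fold change 0.54 with SE 0.05, edgeR adjusted p = 2.17e-12). Its neighbour COL6A1 had 18.4, 17.3 and 14.8 against 23.6, 19.4 and 26.0 CPM and rose 1.37-fold (log2 fold change 0.45 with SE 0.12, edgeR adjusted p = 0.00148). Per kb, COL6A2 was 8.09 ± 0.789 times as abundant as COL6A1 in control and 8.69 ± 1.33 times in BARD1 siRNA libraries, which overlapped (exact permutation p = 0.6). COL6A3, the third chain of the usual collagen VI trimer, stayed under 3 CPM (log2 fold change 0.36 with SE 0.40, edgeR adjusted p = 0.506). COL8A1, a network collagen of vessel walls and the eye, overlapped between the groups at 26.1, 27.1 and 28.6 and 25.2, 27.1 and 26.6 CPM (edgeR adjusted p = 0.722).

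Among the fibrillar collagens, which make the tensile fibres of connective tissue, COL27A1 rose and COL3A1 and COL5A2 fell. COL27A1, a fibrillar chain of cartilage (ENSG00000196739, chromosome 9, 114155560 to 114312511, plus strand), had 14.5, 15.4 and 12.7 CPM in control and 37.1, 34.3 and 31.9 CPM in BARD1 siRNA libraries. It rose 2.43-fold (log2 fold change 1.28 with SE 0.11, edgeR adjusted p = 1.08e-14). COL3A1, the fibrillar chain of skin and vessels (ENSG00000168542, chromosome 2, 188974320 to 189012746, plus strand), went from 18.6, 19.4 and 19.6 to 12.7, 8.71 and 11.2 CPM, a 1.77-fold fall (log2 fold change −0.83 with SE 0.13, edgeR adjusted p = 7.26e-07). COL5A2 (ENSG00000204262, chromosome 2, 189031896 to 189225312, minus strand), which lies tail to tail with COL3A1 at a distance of 19149 bases, went from 9.56, 9.98 and 7.93 to 5.05, 4.62 and 7.24 CPM. Its groups did not overlap (log2 fold change −0.70 with SE 0.19, edgeR adjusted p = 0.00169).

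COL5A1, the partner chain of COL5A2 in collagen V, had 334, 325 and 311 CPM in control and 306, 305 and 309 CPM in BARD1 siRNA libraries. All BARD1 siRNA libraries lay just below the lowest control library, but the difference did not pass (log2 fold change −0.08 with SE 0.05, edgeR adjusted p = 0.223). It passed with upper-quartile scaling (log2 fold change −0.14, adjusted p = 0.0153) and with library size alone (−0.13, 0.0192), within a range of 0.0153 to 0.461 over all alternatives. Per kb, COL5A1 was 23.2, 21.7 and 26.1 times as abundant as COL5A2 in control and 40.4, 44.0 and 28.4 times in BARD1 siRNA libraries. Collagen I, the main fibre of bone and tendon, was scarce: COL1A1 had 4.67, 5.23 and 4.77 CPM in control and 6.96, 5.98 and 7.18 CPM in BARD1 siRNA libraries, without overlap but short of the threshold (log2 fold change 0.46 with SE 0.20, edgeR adjusted p = 0.0595). COL1A2, its partner, stayed under 2 CPM (edgeR adjusted p = 0.968).

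Fibril-associated collagens coat fibrils without forming them, and the 2 that could be tested moved in opposite directions. COL12A1, which sits on collagen I fibrils (ENSG00000111799, chromosome 6, 75084326 to 75206051, minus strand), had 333, 312 and 324 CPM in control and 213, 218 and 206 CPM in BARD1 siRNA libraries. It fell 1.52-fold with no overlap (log2 fold change −0.61 with SE 0.05, edgeR adjusted p = 5.98e-15) and was the most abundant of the 4 members that fell. COL16A1 (ENSG00000084636, chromosome 1, 31652247 to 31704319, minus strand) rose from 1.25, 2.17 and 1.28 to 3.63, 6.69 and 7.18 CPM (log2 fold change 1.90 with SE 0.28, edgeR adjusted p = 2.10e-07). The lowest BARD1 siRNA library held 59 COL16A1 reads and the highest control library 37.

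The 10 fibroblast and stromal markers summed to 32.9 to 35.7 CPM in control and 22.6 to 24.3 CPM in BARD1 siRNA libraries. Of the 3 that could be tested TAGLN, an actin-binding protein of contractile cells, fell (30.4 ± 2.42 to 19.9 ± 1.29 CPM, log2 fold change −0.61, edgeR adjusted p = 2.25e-06), while DCN and PDPN did not pass (log2 fold changes −0.10 and 0.84). Without TAGLN the list came to 2.72 to 4.90 CPM in control and 2.72 to 5.35 CPM in BARD1 siRNA libraries, which overlapped. The other 7 markers were too low to test. Over the control and BARD1 siRNA libraries THY1 had 42 and 14 counts, LUM 28 and 14, and ACTA2 16 and 11. The fibroblast receptor PDGFRB had 2 and 0, PDGFRA 16 and 20, FAP 0 and 4, and POSTN 0 and 5. The part of these markers in the fall of COL3A1, COL5A2 and COL12A1 was not tested. In RNA from whole cultures, fewer cells of a type and less RNA per cell cannot be told apart.

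**Figure D4:**
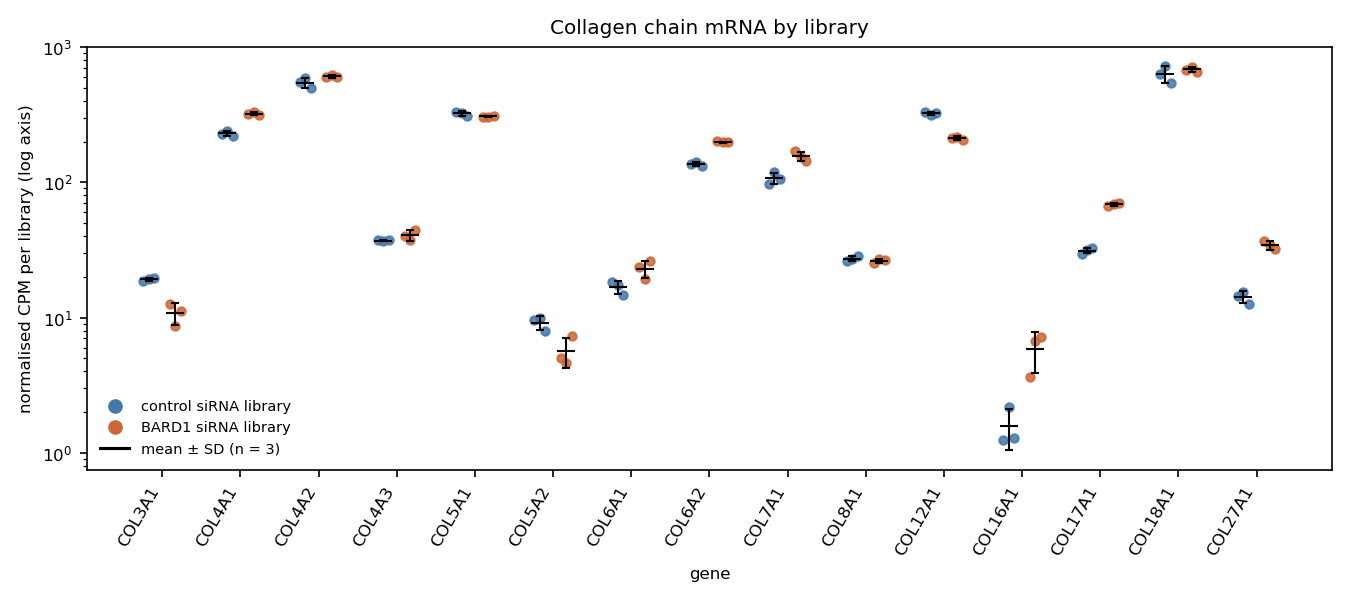
Normalised CPM of 15 collagen genes in each library (log axis), with control siRNA in blue, BARD1 siRNA in orange and mean ± SD (n = 3) in black. All BARD1 siRNA points of COL17A1, COL27A1 and COL16A1 lie above the control points, and those of COL3A1, COL5A2 and COL12A1 lie below them.

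The remaining collagens were low or silent. Of the 23 members not tested, 7 had no count in any library, namely COL6A5, COL9A3, COL21A1, COL22A1, COL24A1, COL25A1 and COL28A1, for which counting error alone leaves room for up to 3 counts in a group. The other 16 had between 1 and 29 counts over all 6 libraries. COL9A2, the highest of them, had 6 counts over the control and 23 over the BARD1 siRNA libraries, and COL20A1 had 0 and 11, of which 8 were in BARD1 siRNA replicate 3. COL11A2, COL23A1 and COL26A1 were tested at under 3 CPM and did not pass (edgeR adjusted p = 0.638, 0.973 and 0.473). The groups did not overlap for 19 of the 33 tested members, or 57.6%, beside 50.4% of all tested genes.

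Several members share positions in the genome. COL3A1 and COL5A2, COL6A1 and COL6A2, and COL4A1 and COL4A2 each lie within 200 kb of each other. The first pair was called lower and the other pairs higher, beside 20.3% lower and 22.0% higher of all tested genes. The COL4A2 call was lost under some alternatives. LAMB1 and LAMB4, COL4A5 and COL4A6, COL9A1 and COL19A1, and COL6A5 and COL6A6 lie as near, but not every gene of these pairs could be tested. Whether neighbours moved together was not tested. COL4A3 and COL4A4, 111 bases apart head to head, were both not called. LAMB1 overlaps DLD over 7932 bases, LAMA5 overlaps ADRM1 over 908 and COL18A1 overlaps SLC19A1 over 20149, on opposite strands. Each of these members had the higher mean count of the pair, but without a known strand setting reads of the shared stretches cannot be assigned with certainty. LAMC1 and COL4A3 overlap antisense genes with at most 24.7 counts on average.

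The proteins that fold and modify collagen in the endoplasmic reticulum went both ways. Of 22 tested genes 8 rose and 6 fell, which is 63.6% called beside 42.3% of all tested genes. Most of the list had at least 20 CPM in 1 group, and 58.4% of all tested genes at that level were called. The list median was 0.09 on the log2 scale. PPIB, a proline isomerase that speeds triple helix folding, rose from 91.0 ± 1.98 to 153 ± 4.72 CPM (log2 fold change 0.75, edgeR adjusted p = 4.90e-16). FKBP14, another isomerase, rose from 16.9 ± 1.79 to 28.3 ± 1.75 CPM (0.74), and MIA3, which loads procollagen into export carriers, from 55.5 ± 1.90 to 85.7 ± 3.47 CPM (0.63). P3H4, a partner of lysyl hydroxylase, fell from 41.6 ± 1.20 to 27.9 ± 1.64 CPM (log2 fold change −0.58, edgeR adjusted p = 4.10e-07). PLOD2, the lysyl hydroxylase of collagen ends, and TMEM38B, an ion channel of the endoplasmic reticulum, fell by 0.47 and 0.43 on the log2 scale. P4HA3, a prolyl hydroxylase subunit, and FKBP10, an isomerase, were under 5 CPM in both groups and named after their values were seen, with log2 fold changes of 1.07 and −0.79 (edgeR adjusted p = 0.00236 and 0.0405).

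Of 14 tested genes that process or crosslink procollagen 6 rose and 1 fell, with a median of 0.27. That is 50% called, beside 42.3% of all tested genes and 58.4% of those with at least 20 CPM in 1 group. Of all tested genes 22.0% were higher and 20.3% lower. The list held genes on both sides of that level. Those at that level, BMP1, LOXL1, LOXL2, TGM2 and PXDN, were all called higher, beside 30.8% of all tested genes there. Below it LOX rose and TLL2 fell. BMP1, LOXL1 and LOXL2 were named after their values were seen. LOX, the lysyl oxidase that crosslinks collagen, rose from 5.59 ± 1.16 to 10.5 ± 0.522 CPM (log2 fold change 0.91, edgeR adjusted p = 2.31e-05). The transglutaminase TGM2 rose from 140.1 ± 8.65 to 255 ± 6.46 CPM (0.86, edgeR adjusted p = 1.98e-19), and PXDN, the peroxidase that forms sulfilimine bonds in collagen IV, from 66.9 ± 3.84 to 109 ± 6.02 CPM (0.71, edgeR adjusted p = 2.27e-13). The gene that fell, TLL2, was named after its values were seen. It had 2.18 ± 0.644 and 0.989 ± 0.426 CPM (log2 fold change −1.13, edgeR adjusted p = 0.0209), and its call was lost without control siRNA replicate 2 or BARD1 siRNA replicate 1 or 3.

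Of 14 tested basement membrane partners 4 rose and 2 fell (median −0.06). The 42.9% called is close to the 42.3% of all tested genes. NTN4, a netrin that binds laminin gamma chains, rose from 78.7 ± 2.73 to 116 ± 4.67 CPM (log2 fold change 0.56, edgeR adjusted p = 5.02e-11). TINAGL1, a matricellular protein, and NID2, a nidogen that links laminin to collagen IV, rose by 0.38 and 0.37 on the log2 scale. FRAS1, which joins basement membrane to skin dermis, and VWA1, a partner of perlecan, fell by 0.36 and 0.32.

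Receptors for collagen and laminin had 7 higher and 4 lower of 19 tested, with a median of 0.11. That is 57.9% called, beside 42.3% of all tested genes and 58.4% of those with at least 20 CPM in 1 group. The list held genes on both sides of that level, so its share is not a like measure to the 58.4%. ITGA1, ITGA7, ITGA10, DDR2 and GP6 were below it and not called. Of the receptors at that level all but ITGB1, MRC2 and CD44 were called. The uncalled receptors were named after their values were seen. ADGRG1, an adhesion receptor that binds collagen III, rose from 30.2 ± 3.38 to 122 ± 0.847 CPM (log2 fold change 2.02, edgeR adjusted p = 1.20e-29). SDC4, a heparan sulfate syndecan, rose from 263 ± 7.66 to 525 ± 12.4 CPM (1.00, edgeR adjusted p = 4.31e-24), and ITGA2, the alpha chain of a collagen-binding integrin, by 0.81 on the log2 scale from 17.2 ± 0.316 CPM. ITGB4, the integrin chain that grips laminin-332 at hemidesmosomes, fell from 100.7 ± 8.33 to 59.2 ± 2.89 CPM (log2 fold change −0.77, edgeR adjusted p = 8.55e-14). BCAM, which binds LAMA5, and DAG1, the dystroglycan receptor of laminins, fell by 0.70 and 0.53 on the log2 scale. ITGA3, ITGA6 and ITGB1, the other laminin-332 integrin chains, were named after their values were seen. ITGA3 and ITGA6 rose by 0.46 and 0.27 on the log2 scale. ITGB1 overlapped between the groups and did not pass (log2 fold change −0.08, edgeR adjusted p = 0.143).

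**Figure D5:**
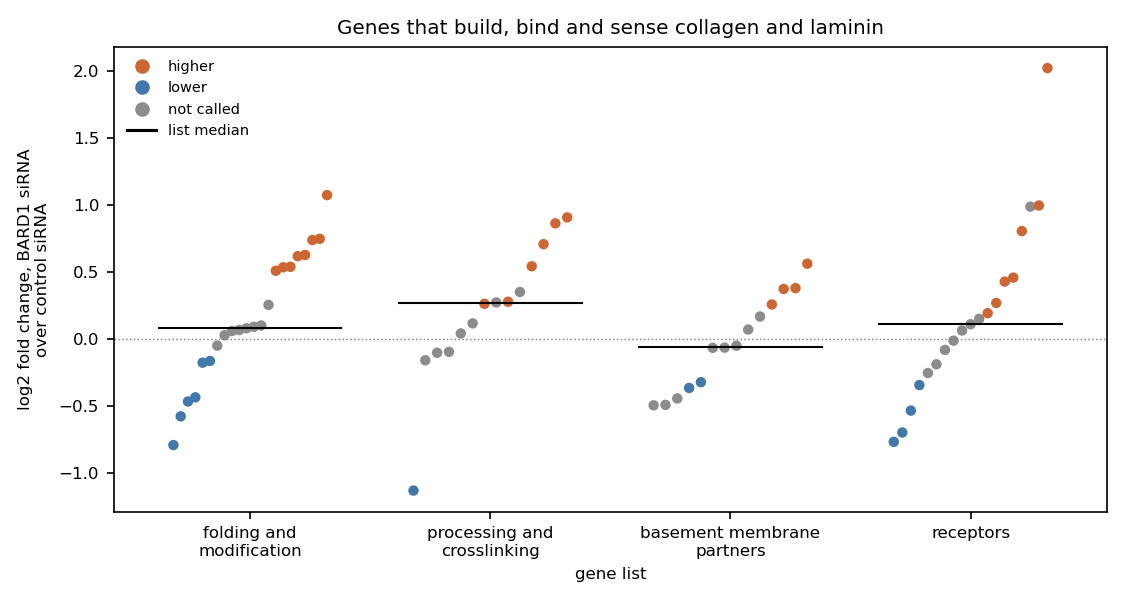
Log2 fold change, BARD1 siRNA over control siRNA (vertical axis), of the tested genes in 4 lists of collagen and laminin partners, each sorted from low to high. Orange and blue points passed an adjusted p of 0.05, grey points did not, and black lines are list medians, which lie between −0.06 and 0.27.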

How the data were processed

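Poly(A)-captured RNA of SKOV3ip1 cells was sequenced in 6 libraries, 3 per group. The authors deposited raw read counts per gene, with HISAT2, CASAVA and GRCh38 (hg38) named per the submitters' processing notes; for versions, counting program, annotation release and strand setting nothing is recorded in the labels. Gene lengths in the same table equal the union of GENCODE 29 exons for 56 of 56 members. All other quantities were computed here. Library totals were 16621108 to 17743404 counts. Counts were tested with edgeR 4.0.16 in R 4.3.3 (robust quasi-likelihood test, TMM factors, group as the only term) after filterByExpr (minimum count 10, minimum total 15), which left 15271 genes, with Benjamini-Hochberg adjustment over all of them and a threshold of 0.05. CPM uses TMM-scaled library sizes. Standard errors (SE) were obtained as the size of each log2 fold change over the root of its F statistic. Chain shares were compared by an exact two-sided permutation test over libraries.

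Members, gene lists and naming rule were chosen with earlier results of these data known. A single member that is included in all counts is not reported by value here. Values are given for members called with a mean of at least 5 CPM in 1 group, or with at least 20 CPM whether called or not, and for up to 3 risen and 3 fallen genes of each companion list with at least 5 CPM. The alternatives were RLE, upper-quartile and library-size scaling, DESeq2 1.42.0, limma-voom (limma 3.58.1), no robust estimation, 2 other filters, protein-coding genes only, a replicate block and leaving out each library; for shares, plain counts. The scripts were tested on simulated data with 50 changed genes at each size of change. Of log2 changes of 0.3, 0.5, 1 and 2, 38%, 48%, 62% and 94% were called, and 3.97% of calls were false. Small changes were thus often missed there, and a gene that did not pass here need not be unchanged. Far fewer genes were changed there than were called here, so these shares need not hold for these data.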

Additional observations from a re-analysis of the deposited data

How the results depend on the processing

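Of 368 fold changes of the 23 members that met the naming rule under the 16 alternatives, 346 kept their direction and side of the threshold, 13 lost the call, 4 gained one and 5 changed sign. The sign changes were in genes that did not pass as reported. LAMB1 was at −0.0461 with upper-quartile scaling, −0.0408 with library size alone, −0.0083 without control siRNA replicate 1 and −0.0053 without BARD1 siRNA replicate 1, and LAMB2 at 0.006 without control siRNA replicate 2. Leaving out each library gave −0.0083 to 0.0525 for LAMB1 and −0.0599 to 0.006 for LAMB2. The lost calls were those of LAMC1, COL4A2 and LAMC3, and LAMC1 was also lost with no filter on low counts, at an adjusted p of 0.0565. The cause was not tested. LAMB3 ranged from 2.71 to 2.80 and LAMA3 from 0.79 to 0.89 on the log2 scale. Members that rose numbered 11 to 14 and members that fell 3 to 5 over all alternatives. The difference in the LAMB3 share was 35.1 percentage points from plain counts, because LAMB3 is the shortest of the beta chain genes. The number of processing genes that fell was 0 to 1 when each library was left out. Of 128 counts for the companion lists 125 stayed within 1.5 times. With the replicate block 14 members rose and 4 fell, the 14th being COL18A1 at an adjusted p of 0.0486. Same-numbered libraries shared no visible deviation from their group means, with correlations of −0.001, −0.005 and −0.019. These values cannot show whether such libraries were prepared together. Depth limits the members under 5 CPM, whose SE reached 0.89.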
